A study of Mus musculus with 12 samples.

Results

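The forkhead box O (FoxO) transcription factors Foxo1, Foxo3 and Foxo4 and 7 genes known as direct FoxO targets (Txnip, Ccng2, Irs2, Insr, Pik3ip1, Sesn1 and Sesn3) were followed through loss of Rictor in mouse leukemia. They were taken by gene symbol, 10 of the 18194 genes that single-symbol probe sets measured, and were covered by 25 of the 34958 probe sets that carry a single symbol. Rictor is an essential subunit of the kinase complex mTORC2. Total RNA of sorted bone marrow leukemia cells was hybridised to 12 Affymetrix arrays in 4 groups of 3: Rictor-deleted (RictorΔ/Δ) and Rictor wild-type (Control) MLL-AF9 leukemia, and Rictor-deleted (RictorΔ/Δ) and Rictor wild-type (Control) MLL-NRIP3 leukemia. The names MLL-AF9 and MLL-NRIP3 are those of the fusion oncogenes that drive the leukemias. In all 4 groups the sorted cells were those labelled K+G– from mice after a first bone marrow transplantation, taken once CD45.2+ cells passed 50% of white blood cells in the blood. The series text states as its aim to learn which molecular events follow Rictor loss in MLL-AF9 leukemia and to examine them further in the MLL-NRIP3 model. The sources used here do not give the Cre driver, the deleted part of Rictor or the age of the mice. They also do not say if arrays of 1 group represent different mice, and p-values therefore measure only how far the arrays spread.

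FoxO factors bind DNA in the nucleus and switch on genes of cell cycle exit, stress resistance and insulin signalling. The kinase Akt, which mTORC2 phosphorylates and thereby activates fully, phosphorylates FoxO proteins so that they leave the nucleus, and several FoxO targets in turn act on the insulin and PI3K pathway that feeds Akt. In blood, FoxO factors are known for keeping stem cells quiescent and protected from oxidative stress. The arrays measure transcripts and do not show where a FoxO protein was in the cell.

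FoxO proteins recognise the core motif GTAAACA, and the related insulin response motif CAAAACA is known from insulin-regulated promoters. In RefSeq promoter windows of build GRCm38.p6, which hold 250 bases before and 50 bases after a gene's start, 8 of the 10 genes had a window and Sesn1 had a second one, giving 9 windows. Foxo4 and Insr were not matched. GTAAACA, read on either strand, was present in 2 of the 9 windows and in 1199 of all 32851 windows (3.65%). CAAAACA was present in 2 of the 9 windows and in 2064 of all windows (6.28%). None of the 9 windows held both motifs. The windows of Sesn1 and Foxo3, which moved together on these arrays, and those of Txnip and Ccng2, which hold a motif and stand for a called and an uncalled target, read as follows, 5′ to 3′ on the strand of the gene, with motif matches in capitals.
Sesn1: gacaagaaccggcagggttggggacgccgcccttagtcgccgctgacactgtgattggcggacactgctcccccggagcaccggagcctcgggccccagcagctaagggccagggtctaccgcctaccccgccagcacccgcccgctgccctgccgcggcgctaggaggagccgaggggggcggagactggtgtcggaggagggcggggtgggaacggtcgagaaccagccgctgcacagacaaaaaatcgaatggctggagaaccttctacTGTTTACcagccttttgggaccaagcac
Foxo3: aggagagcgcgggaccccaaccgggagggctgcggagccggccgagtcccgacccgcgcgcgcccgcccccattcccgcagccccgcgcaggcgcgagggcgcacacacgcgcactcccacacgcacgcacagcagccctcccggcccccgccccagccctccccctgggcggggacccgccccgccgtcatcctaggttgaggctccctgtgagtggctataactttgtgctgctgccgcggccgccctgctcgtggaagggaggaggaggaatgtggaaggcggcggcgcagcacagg
Txnip: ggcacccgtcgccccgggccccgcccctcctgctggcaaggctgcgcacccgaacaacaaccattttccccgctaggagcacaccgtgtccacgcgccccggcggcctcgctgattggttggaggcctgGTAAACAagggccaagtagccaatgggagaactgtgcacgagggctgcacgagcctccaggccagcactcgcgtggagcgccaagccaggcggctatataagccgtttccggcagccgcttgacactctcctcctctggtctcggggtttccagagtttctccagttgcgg
Ccng2: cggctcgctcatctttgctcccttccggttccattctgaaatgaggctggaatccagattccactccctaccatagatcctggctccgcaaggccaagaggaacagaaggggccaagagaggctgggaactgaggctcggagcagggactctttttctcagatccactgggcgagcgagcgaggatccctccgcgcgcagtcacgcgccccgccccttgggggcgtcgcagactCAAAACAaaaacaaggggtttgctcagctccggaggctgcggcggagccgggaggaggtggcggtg
The Sesn1 window shown is the first of 2, at chr10:41810324-41810623 on the plus strand. It holds the core motif on the opposite strand, as TGTTTAC, with its first base at position 23 counted from the gene's start. The second Sesn1 window, at chr10:41887189-41887488 on the plus strand, held neither motif. The Foxo3 window, at chr10:42276646-42276945 on the minus strand, held neither motif. In the Txnip window, at chr3:96557707-96558006 on the plus strand, GTAAACA begins at position -121. In the Ccng2 window, at chr5:93267323-93267622 on the plus strand, CAAAACA begins at position -16, and the window of Irs2 holds the same motif on the opposite strand at position -37. A match is a description of these letters and does not show that a factor binds there.

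The number of arrays limits the precision, and the median intensity of an array was 8.16 to 8.36 in MLL-AF9 and 13.6 to 14.2 in MLL-NRIP3 leukemia. The models look as if they were normalized separately, so levels are not compared across them. The median gene had an SD on the log2 scale of 0.0624 among Rictor-deleted and 0.0757 among control MLL-AF9 arrays, and of 0.136 among Rictor-deleted and 0.146 among control MLL-NRIP3 arrays. MLL-NRIP3 control arrays 1 and 2 stood apart: the mean log2 intensity of 18 hybridization control probe sets was 11.2 and 10.6 on them and between 9.31 and 9.53 on the other 4 MLL-NRIP3 arrays, and Gapdh probe sets gave a 5′ over 3′ ratio of 0.562 and 0.738 on them and between 0.881 and 0.965 on the others. The brightest Rictor probe set read 87.5 ± 9.26 in Rictor-deleted and 86.8 ± 4.80 in control MLL-AF9 leukemia, and 104 ± 18.6 in Rictor-deleted and 113 ± 26.0 in control MLL-NRIP3 leukemia (SD, n = 3 each), and with the deleted part unknown it does not check the labels. In MLL-AF9 leukemia the genotypes also differed in sex-linked transcripts. Xist, which coats the silenced X chromosome, read 98.5 ± 95.0 in Rictor-deleted and 2387 ± 48.5 in control cells, and the Y-linked Eif2s3y read 162 ± 20.9 in Rictor-deleted and 4.97 ± 2.46 in control cells (SD, n = 3 each), so that genotype and sex of the cells cannot be told apart there.

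In MLL-AF9 leukemia, Rictor deletion came with less Foxo3, less Sesn1 and less Txnip transcript, each by a factor of 1.198 to 1.36, and none of the 10 genes was called higher. Foxo3 and Sesn1 had lower values on all Rictor-deleted than on all control arrays in both models. Genes were called at an adjusted p under 0.05 in limma (two-sided, Benjamini-Hochberg over 12573 genes, each model fitted on its own 6 arrays), with fold changes on the scale of log2(intensity + 16), which understates changes of dim genes. In MLL-AF9 leukemia 3 of the 10 genes were called lower and 0 higher, where 4.46% of all genes tested were called lower, 3.8% higher and 8.26% in either direction. In MLL-NRIP3 leukemia 0 of the 10 were called, where 0.779% of all genes tested were called higher, 0.748% lower and 1.53% in either direction, and 3 had an unadjusted p under 0.05, where 17.7% of all genes had one. In MLL-AF9 leukemia 5 had an unadjusted p under 0.05, where 21.8% of all genes had one. In MLL-NRIP3 leukemia 3 of the 10 became calls with 1 spread shared by all arrays (Foxo3, Insr and Sesn1), where 13.8% of all genes (1734) were called. In simulated data with 200 changed genes, 148 of 324 calls in that fit were false (45.7%). That share depends on how many genes change, so it does not give the share of false calls here. With array weights 3 became calls, all lower (Ccng2, Insr and Sesn1), where 23.9% of all genes were called in either direction. The count of 3 in 10 is near that share. Lower calls alone were 1352 of 12573 genes in that setting. In MLL-AF9 leukemia the shared spread left 0 of the 10 called, where 1.4% of all genes were. The arrays of the genotypes did not overlap for 4 genes in MLL-AF9 leukemia, all lower (Foxo3, Txnip, Sesn1 and Sesn3), where 15.7% of all genes tested were apart and lower and 11.4% apart and higher. In MLL-NRIP3 leukemia they did not overlap for 3 lower genes (Foxo3, Insr and Sesn1) and 1 higher gene (Foxo1), where 12.7% of all genes were apart and lower and 9.7% apart and higher. The median log2 change of the 10 was -0.13 in MLL-AF9 leukemia, against -0.01 over all genes tested, and -0.07 in MLL-NRIP3 leukemia, against 0.00 over all genes, with 7 of 10 negative in each. All 10 genes passed the filter on low intensity through their brightest probe set, as did 21 of the 25 probe sets.

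**Figure D1:**
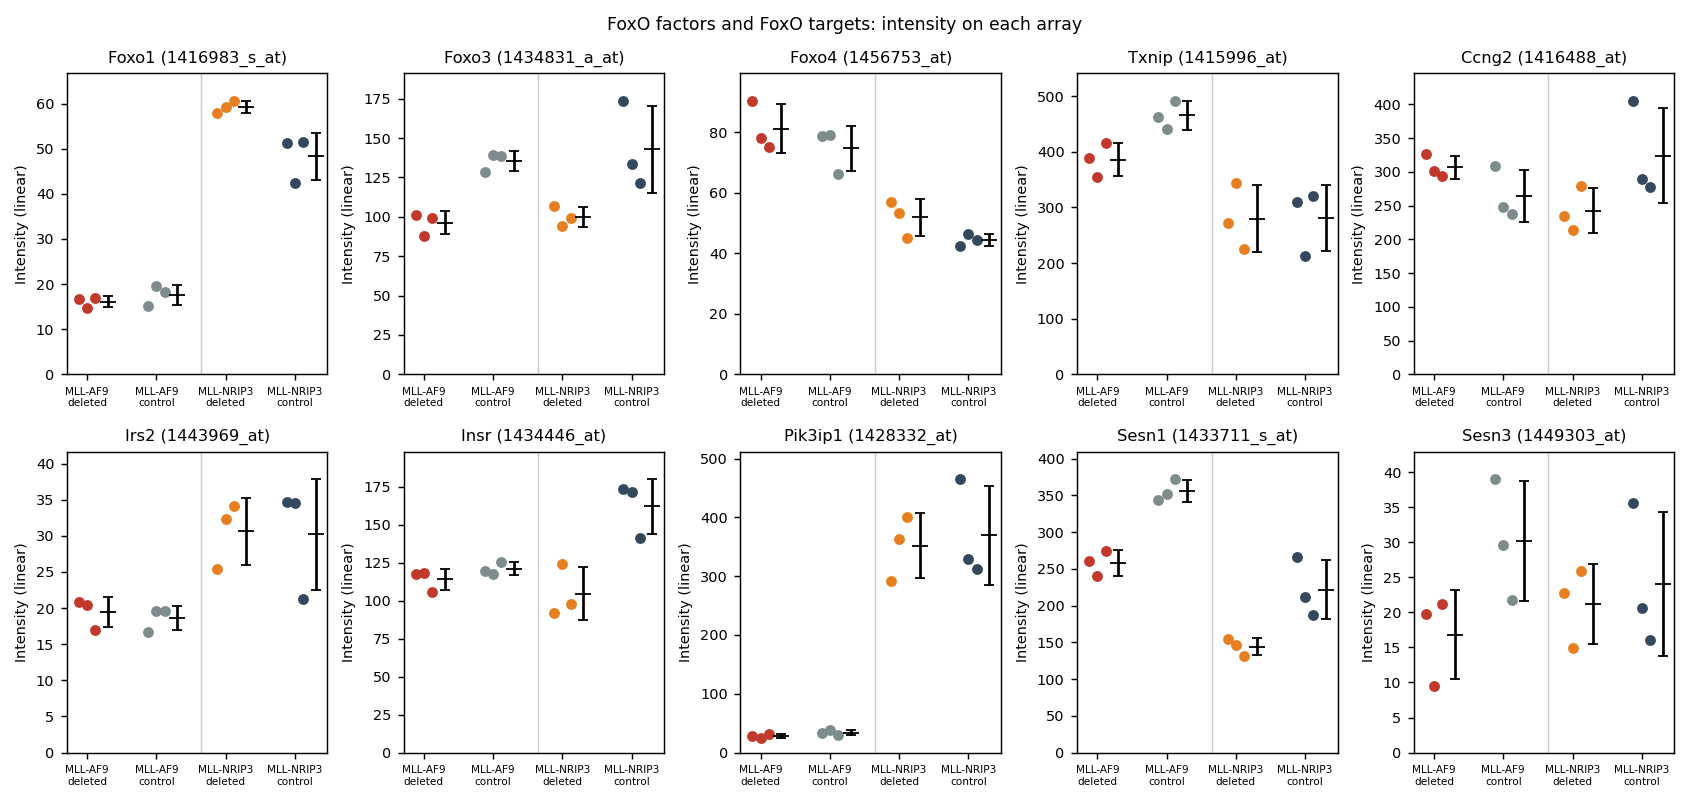
Linear intensity of the brightest probe set of each gene on each of the 12 arrays (points), with the mean and SD of each group of 3 (bars), Rictor-deleted left of control within each model. Foxo3 and Sesn1 lie lower on all Rictor-deleted arrays than on all control arrays in both models, whereas Irs2 and Pik3ip1 overlap.

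Foxo3, the FoxO factor best known for stem cell quiescence, was the only FoxO factor called in MLL-AF9 leukemia. Its brightest probe set read 101, 87.8 and 99.3 on Rictor-deleted MLL-AF9 arrays and 128, 139 and 139 on control arrays. Every Rictor-deleted array lay below every control array, and the groups did not overlap. Foxo3 fell 1.35-fold in MLL-AF9 leukemia (log2 change -0.43 ± 0.08 (SE), adjusted p = 0.0052). The call held without any 1 of the 6 arrays, with adjusted p between 0.0085 and 0.029, but ended when 1 spread was shared by all 12 arrays (0.139), and the change shrank to -0.24 when the probe sets of the gene were averaged. In MLL-NRIP3 leukemia Foxo3 read 107, 94.1 and 99.5 in Rictor-deleted cells and 174, 133 and 121 in controls. Again all 3 Rictor-deleted arrays were lower, and control array 1 was far above the other controls. The log2 change of Foxo3 was -0.44 ± 0.16 (SE) with an adjusted p of 0.21, and -0.24 without control arrays 1 and 2. A second Foxo3 probe set, 1434832_at, read 51.4, 45.18 and 49.5 in Rictor-deleted and 64.1, 59.4 and 62.9 in control MLL-AF9 leukemia, and 76.0, 72.1 and 80.7 in Rictor-deleted and 108, 86.9 and 90.1 in control MLL-NRIP3 leukemia. It too was lower on every Rictor-deleted array, without passing the test (log2 changes -0.27 and -0.26, adjusted p 0.075 and 0.38 over 22531 probe sets). In bulk samples such as these, fewer cells of a type that carries a transcript and less of it per cell cannot be told apart.

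Foxo1, a close relative of Foxo3 and a mediator of insulin action, was dim in MLL-AF9 leukemia. Its brightest probe set read 16.6, 14.6 and 16.9 in Rictor-deleted and 15.2, 19.5 and 18.2 in control cells. These overlapped (log2 change -0.07 ± 0.06 (SE), adjusted p = 0.60). In MLL-NRIP3 leukemia it read 57.9, 59.3 and 60.6 in Rictor-deleted and 51.2, 42.3 and 51.6 in control cells, higher on every Rictor-deleted array. The log2 change of 0.23 ± 0.13 (SE) did not pass the test (adjusted p = 0.39). Probe set 1416982_at of Foxo1 read 17.2, 19.8 and 18.4 in Rictor-deleted and 12.03, 9.97 and 11.9 in control MLL-NRIP3 cells, whereas in MLL-AF9 leukemia it was near the filter intensity of 7.7, at 5.98 ± 0.13 in Rictor-deleted and 7.23 ± 1.24 in control cells (SD, n = 3 each). Its responses of 0.34 in MLL-NRIP3 and -0.08 in MLL-AF9 leukemia on the log2 scale were not called in either model (adjusted p 0.084 and 0.32). Probe set 1416981_at overlapped between the genotypes in MLL-NRIP3 leukemia, at 41.9, 47.9 and 33.0 in Rictor-deleted and 49.1, 23.5 and 23.7 in control cells, and its log2 change there was 0.28 (adjusted p = 0.53). In MLL-AF9 leukemia 1416981_at was mostly under the filter intensity, at 6.64, 5.63 and 6.77 in Rictor-deleted and 7.34, 7.45 and 7.98 in control cells, lower on every Rictor-deleted array (-0.08, unadjusted p = 0.048, adjusted p = 0.25). A further probe set of Foxo1 and another of Foxo3 did not pass the filter.

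Foxo4, a FoxO factor encoded on the X chromosome, read 90.5, 78.0 and 75.2 in Rictor-deleted and 78.6, 79.1 and 66.2 in control MLL-AF9 leukemia. It read 57.0, 53.5 and 45.1 in Rictor-deleted and 42.4, 46.2 and 44.5 in control MLL-NRIP3 leukemia. The genotypes overlapped in both models, with log2 changes of 0.10 ± 0.09 and 0.17 ± 0.13 (SE, adjusted p 0.59 and 0.54). Its second probe set, 1422149_at, was dim and had log2 changes of -0.07 and 0.08. Foxo3 and Foxo4 had changes of opposite sign in both models at their brightest probe sets, of which only that of Foxo3 in MLL-AF9 leukemia was called.

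**Figure D2:**
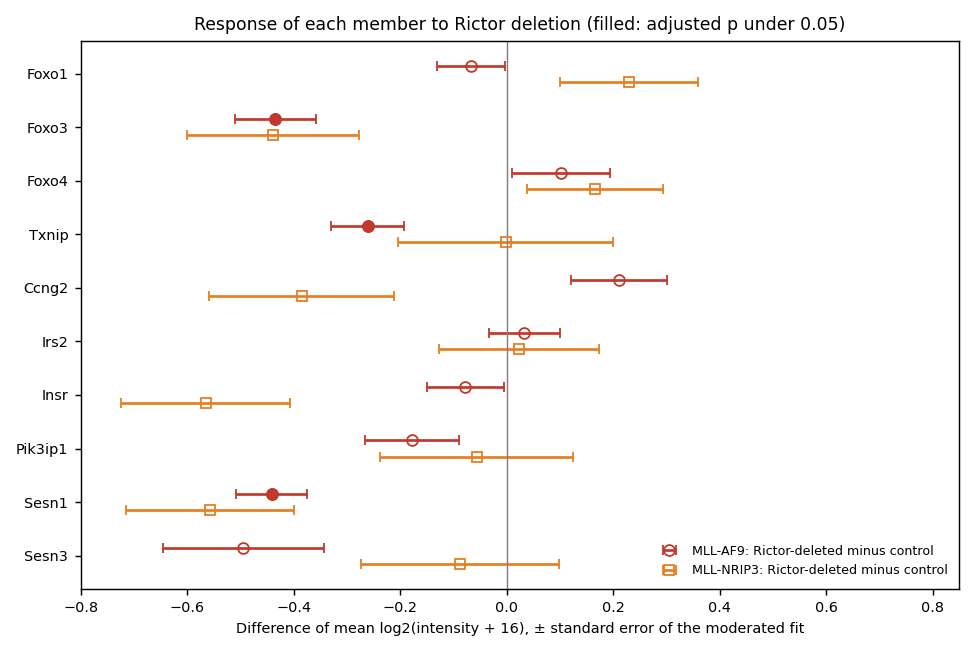
Difference of mean log2(intensity + 16), Rictor-deleted minus control, with the standard error of the moderated fit, for the brightest probe set of each gene in MLL-AF9 (circles) and MLL-NRIP3 leukemia (squares). Filled symbols mark the 3 calls, Foxo3, Txnip and Sesn1, all in MLL-AF9 leukemia.

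Sesn1 encodes sestrin 1, a stress-induced protein that restrains mTORC1, and it is a target of both p53 and FoxO. Its brightest probe set read 261, 239.6 and 274 in Rictor-deleted and 343, 352 and 372 in control MLL-AF9 leukemia. The groups lay wide apart relative to their spread. Sesn1 fell 1.36-fold (log2 change -0.44 ± 0.07 (SE), adjusted p = 0.0018). The call held without any 1 array (adjusted p between 0.0040 and 0.012) and ended with 1 shared spread (0.109) and with averaged probe sets (log2 change -0.23, 0.079). In MLL-NRIP3 leukemia Sesn1 read 154, 147 and 131 in Rictor-deleted and 265, 212 and 187 in control cells. All Rictor-deleted arrays were again below all controls, and the log2 change of -0.56 ± 0.16 (SE) had an unadjusted p of 0.0068 and an adjusted p of 0.13. That value became a call without control array 3 (-0.67, adjusted p = 0.045), whereas without control arrays 1 and 2 it was -0.34 (adjusted p = 0.72).

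The other Sesn1 probe sets differed in the size of their changes. Probe set 1454699_at read 81.2, 76.3 and 86.6 in Rictor-deleted and 119, 95.9 and 118 in control MLL-AF9 leukemia, and 31.6, 29.6 and 33.0 in Rictor-deleted and 36.4, 39.8 and 41.3 in control MLL-NRIP3 leukemia. It was lower on every Rictor-deleted array of both models and was called in MLL-AF9 leukemia (log2 change -0.38, adjusted p = 0.031), a call that held only without control array 2 when single arrays were left out (adjusted p between 0.064 and 0.13 without any of the other 5). Probe set 1438931_s_at read 90.3, 78.6 and 114 in Rictor-deleted and 114, 92.1 and 97.6 in control MLL-AF9 leukemia. These overlapped (log2 change -0.10, adjusted p = 0.71), whereas in MLL-NRIP3 leukemia it read 40.8, 41.4 and 41.1 in Rictor-deleted and 44.3, 41.97 and 54.7 in control cells, narrowly lower on every Rictor-deleted array (-0.14, adjusted p = 0.63). The remaining Sesn1 probe set, 1444376_at, averaged 8.39 ± 0.50 in Rictor-deleted and 8.36 ± 1.23 in control MLL-AF9 leukemia (SD, n = 3 each). The suffix _s_at marks probe sets whose probes can match transcripts of more than 1 gene, which holds for the brightest Sesn1 and Foxo1 probe sets but not for 1454699_at.

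Sesn3, a sestrin known as a FoxO target that restrains mTORC1, was dim. It read 19.8, 9.51 and 21.2 in Rictor-deleted and 39.1, 29.7 and 21.8 in control MLL-AF9 leukemia, so the groups were separated only narrowly. Its log2 change of -0.49 ± 0.15 (SE) was of the size seen for Sesn1 but did not pass the test (adjusted p = 0.074). In MLL-NRIP3 leukemia it read 22.8, 14.9 and 26.0 in Rictor-deleted and 35.6, 20.6 and 15.99 in control cells, which overlapped (-0.09 ± 0.19 (SE), adjusted p = 0.84). The second Sesn3 probe set, 1453313_at, averaged 6.05 ± 2.33 in Rictor-deleted and 6.37 ± 1.15 in control MLL-AF9 leukemia (SD, n = 3 each) and had log2 changes of -0.02 and 0.01.

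**Figure D3:**
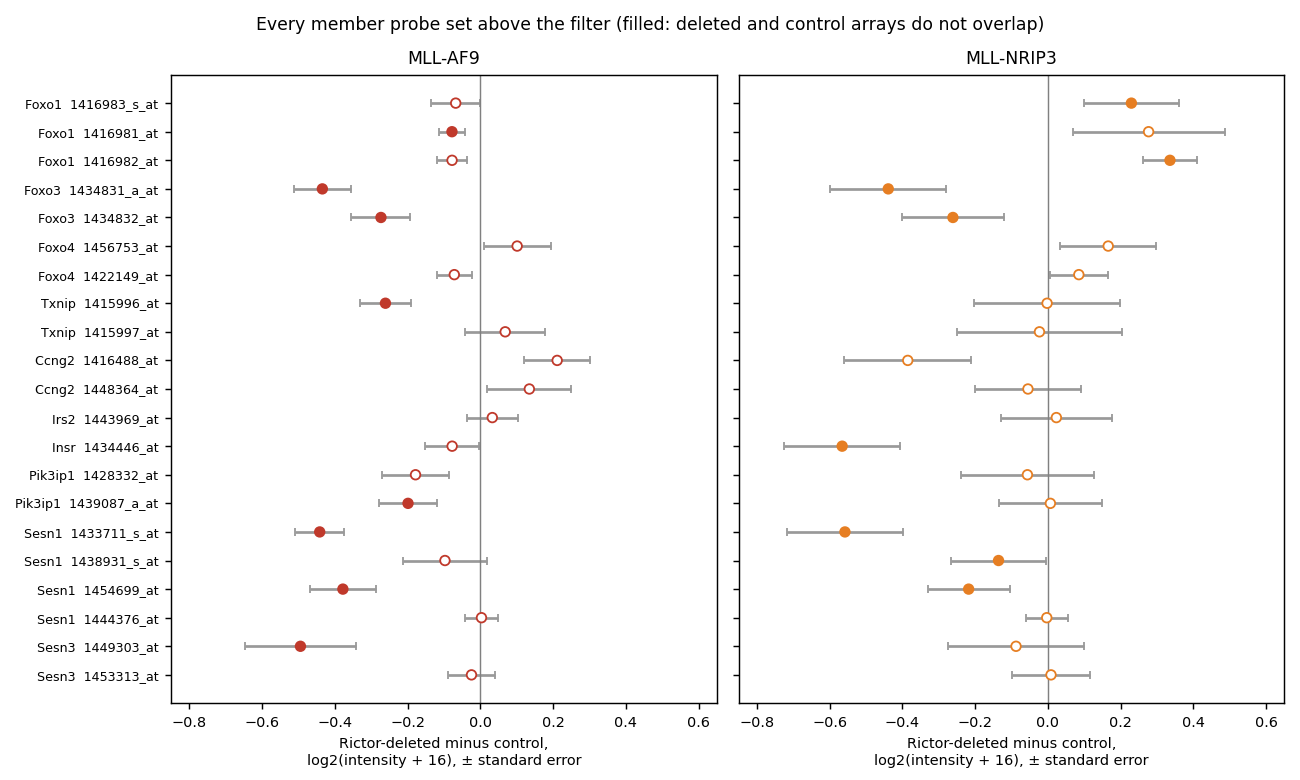
Rictor-deleted minus control on the log2(intensity + 16) scale, with standard errors, for each of the 21 probe sets of the 10 genes above the filter, in MLL-AF9 (left) and MLL-NRIP3 leukemia (right). Filled points are probe sets whose 3 Rictor-deleted and 3 control arrays do not overlap; both Foxo3 probe sets are filled on the negative side in both models.

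Txnip encodes a protein that binds and inhibits thioredoxin and limits glucose uptake, and it responds to FoxO and to the glucose sensor MondoA. Its brightest probe set read 388, 355 and 415 in Rictor-deleted and 463, 441 and 492 in control MLL-AF9 leukemia, every Rictor-deleted array below every control. Txnip fell 1.198-fold (log2 change -0.26 ± 0.07 (SE), adjusted p = 0.040). The call, close to the threshold, was lost on leaving out control array 1, control array 3, Rictor-deleted array 1 or Rictor-deleted array 2 (adjusted p 0.075, 0.12, 0.10 and 0.16). It also ended with array weights (0.055), with 1 shared spread (0.793) and with averaged probe sets (0.485). The second Txnip probe set, 1415997_at, went the other way, at 71.3, 78.0 and 87.6 in Rictor-deleted and 87.0, 76.7 and 61.2 in control cells, without passing the test (0.07, adjusted p = 0.80). In MLL-NRIP3 leukemia the brightest Txnip probe set read 271, 344 and 225 in Rictor-deleted and 310.03, 212 and 321 in control cells, with wide overlap and a log2 change of 0.00 ± 0.20 (SE).

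Ccng2 encodes cyclin G2, a cyclin of cells that leave the cycle. It read 326, 301 and 294 in Rictor-deleted and 308, 247 and 238 in control MLL-AF9 leukemia. In MLL-NRIP3 leukemia it read 235, 213 and 279 in Rictor-deleted and 406, 289.88 and 277 in control cells. The genotypes overlapped in both models, and the changes had opposite signs: 0.21 ± 0.09 in MLL-AF9 leukemia (SE, adjusted p = 0.20) and -0.39 ± 0.17 in MLL-NRIP3 leukemia (adjusted p = 0.29). In MLL-AF9 leukemia Ccng2 became a call without control array 1 (0.32, adjusted p = 0.023). The second Ccng2 probe set, 1448364_at, had log2 changes of 0.13 and -0.06.

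The members on the receptor side of the pathway were not called in either model. Insr, the insulin receptor, whose gene FoxO factors activate when insulin is low, read 118, 118 and 106 in Rictor-deleted and 119.6, 118 and 126 in control MLL-AF9 leukemia, which overlapped (log2 change -0.08 ± 0.07 (SE), adjusted p = 0.60). In MLL-NRIP3 leukemia it read 91.6, 124 and 97.9 in Rictor-deleted and 173, 171 and 141 in control cells, lower on every Rictor-deleted array. The log2 change of -0.57 ± 0.16 (SE), or 1.48-fold, had an unadjusted p of 0.0067 and an adjusted p of 0.13, and it was -0.39 without control arrays 1 and 2. The other Insr probe sets were under the filter.

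Irs2, the adaptor that links insulin and IGF receptors to PI3K, read 20.9, 20.5 and 17.0 in Rictor-deleted and 16.7, 19.6 and 19.6 in control MLL-AF9 leukemia. In MLL-NRIP3 leukemia it read 25.4, 32.3 and 34.2 in Rictor-deleted and 34.7, 34.5 and 21.3 in control cells. Its log2 changes of 0.03 ± 0.07 and 0.02 ± 0.15 (SE) were among the smallest of the 10 genes, at low intensity in MLL-AF9 leukemia. Pik3ip1, a membrane protein that inhibits PI3K, read 27.5, 25.0 and 31.2 in Rictor-deleted and 33.3, 38.6 and 29.3 in control MLL-AF9 leukemia. It read 292, 363 and 401 in Rictor-deleted and 466, 329.7 and 313 in control MLL-NRIP3 leukemia. The genotypes overlapped in both (log2 changes -0.18 ± 0.09 and -0.06 ± 0.18 (SE), adjusted p 0.27 and 0.90). Its second probe set, 1439087_a_at, read 16.6, 16.4 and 18.2 in Rictor-deleted and 19.1, 26.7 and 20.5 in control MLL-AF9 leukemia, without overlap and without passing the test (-0.20, adjusted p = 0.19).

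Over the 21 probe sets above the filter, each tested on its own, 3 were called in MLL-AF9 leukemia (Foxo3 1434831_a_at and Sesn1 1433711_s_at and 1454699_at, all lower), where 6.05% of all 22531 probe sets were called. In MLL-NRIP3 leukemia 0 of 21 were called, where 0.905% of all were. Txnip 1415996_at had an adjusted p of 0.053 in this larger set of tests. The call in MLL-AF9 leukemia and its absence in MLL-NRIP3 leukemia do not by themselves show that the models differ, and the MLL-NRIP3 arrays were more widely spread. In simulated data with the spread of each model, log2 changes of 0.5 were recovered for 78% of genes in MLL-AF9 and for 12% in MLL-NRIP3 leukemia. These shares depend on how many genes change, here 200, so they do not give the share recovered in the real data.

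The difference of the responses, MLL-NRIP3 minus MLL-AF9, was tested with all 12 arrays. Of the 10 genes 0 were called, where 4.78% of all genes tested were (2.25% positive and 2.53% negative), and 2 had an unadjusted p under 0.05, where 18.5% of all genes had one. These were Ccng2, with a difference of -0.60 ± 0.22 (SE, unadjusted p = 0.016, adjusted p = 0.15), and Insr, with -0.49 ± 0.17 (unadjusted p = 0.011, adjusted p = 0.12). The difference of Ccng2 became a call without MLL-AF9 control array 1 (-0.71, adjusted p = 0.045), and with array weights both did (adjusted p 0.024 for Ccng2 and 0.0066 for Insr), a setting in which 20.1% of all genes were called. For Foxo3 the difference was 0.00 ± 0.17 and for Sesn1 -0.12 ± 0.16 (SE, adjusted p 0.99 and 0.78), and for Txnip it was 0.26 ± 0.20 (adjusted p = 0.56). A p that misses the threshold does not show that the responses were equal. Of the 21 probe sets 1 had a called difference, Foxo1 1416982_at (0.41, adjusted p = 0.022), where 3.81% of all probe sets had one. It passed the filter only through MLL-NRIP3 leukemia: both MLL-AF9 means were under 7.7, where a response could hardly register, so this call does not show that the responses differed.

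Foxo3 and Sesn1 varied together from array to array. On log2 values with the mean of each model taken off, their brightest probe sets had a Pearson correlation of 0.974 over the 12 arrays, a value that includes the difference between genotypes. With the mean of each group taken off instead, it was 0.896. Within the 6 arrays of a model, with only the model mean taken off, it was 0.987 in MLL-AF9 and 0.971 in MLL-NRIP3 leukemia. Both of these values again include the difference between genotypes. The points share the arrays and their normalization, so these values are descriptions. MLL-NRIP3 control array 1, one of the arrays that stood apart in its control probe sets, was highest in its model for both genes. With model means removed, the MLL-NRIP3 control arrays read 0.49, 0.14 and 0.02 for Foxo3 and 0.54, 0.24 and 0.06 for Sesn1. No other group spread as widely for both genes, so the correlation with group means removed rests largely on these arrays. Among the genes tested, with clone names and predicted genes left out, Sesn1 had the pattern most like that of Foxo3, followed by Tiparp (0.962) and Cryl1 (0.961). For Sesn1, Foxo3 was followed by Cryl1 (0.972) and Plek (0.967). For Txnip the closest were Serinc1 (0.964), Zkscan17 (0.931) and Tubb2a (0.916). Insr had correlations of 0.653 with Foxo3 and 0.756 with Sesn1 with model means removed, and of 0.134 and 0.344 with group means removed.

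**Figure D4:**
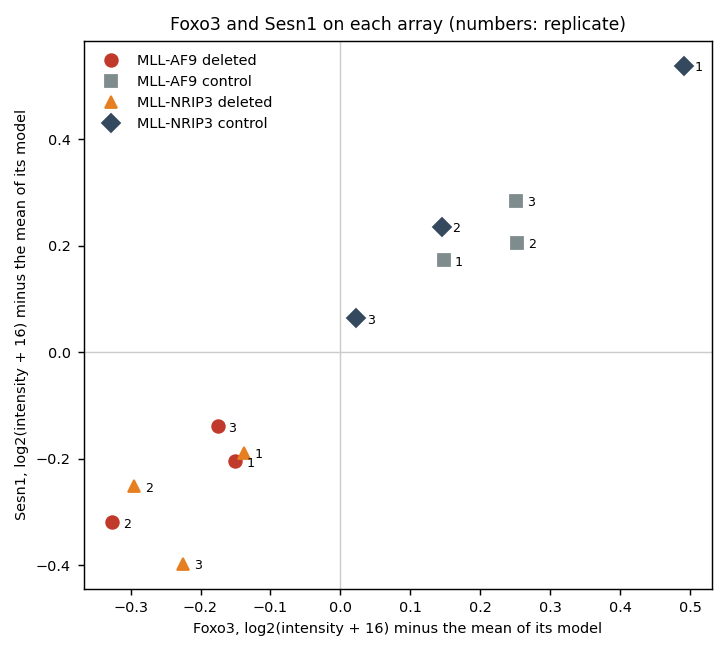
Foxo3 (horizontal axis) against Sesn1 (vertical axis) on each of the 12 arrays, as log2(intensity + 16) minus the mean of the array's model, with replicate numbers beside the points. The 6 Rictor-deleted arrays lie in the lower left and the 6 control arrays in the upper right, with MLL-NRIP3 control array 1 farthest out.

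Foxo3 and Sesn1 are neighbours on chromosome 10, with 1 protein-coding gene between them in the RefSeq table, which was not tested here. The 10 nearest genes tested on each side were examined, a choice made after the values of Foxo3 and Sesn1 were seen. Of these 20 neighbours 0 were called, where 8.26% of all genes were in MLL-AF9 and 1.53% in MLL-NRIP3 leukemia. In both models together, 0 were lower without overlap, as Foxo3 and Sesn1 were and as 3% of all genes tested were. In MLL-AF9 leukemia alone Fig4, Cd164 and Afg1l were apart and lower. In MLL-NRIP3 leukemia Gtf3c6, Cdk19, Cdc40 and Mical1 were apart and lower and Snx3 apart and higher. Mical1 (-0.80 ± 0.19, SE) and the overlapping Cd24a (-1.65 ± 1.24) fell further there than Sesn1. The median log2 change of the neighbours was -0.04 in MLL-AF9 and -0.04 in MLL-NRIP3 leukemia.

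**Figure D5:**
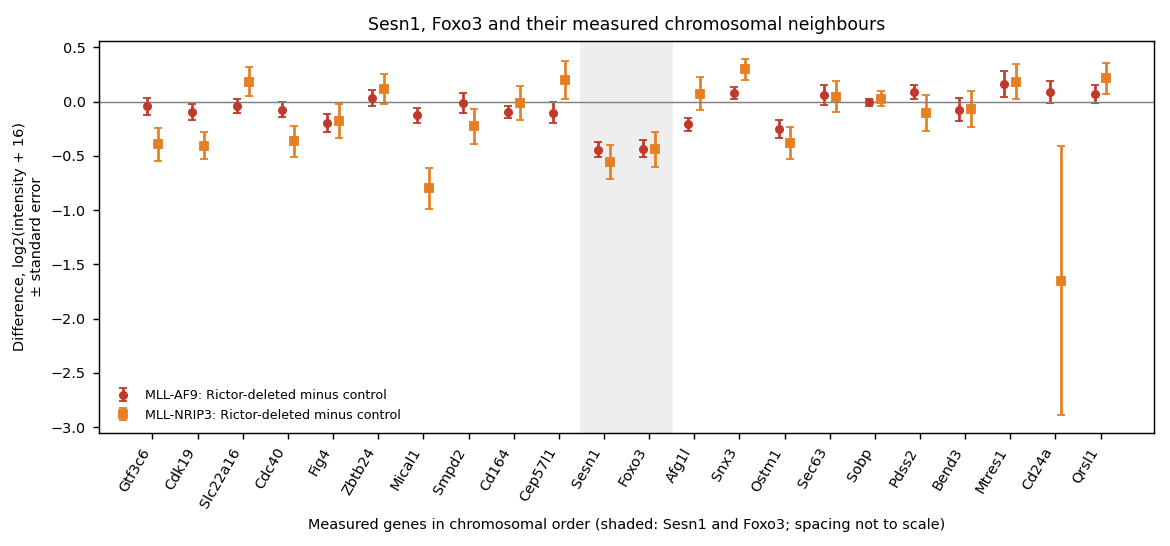
Rictor-deleted minus control on the log2(intensity + 16) scale, with standard errors, for Sesn1, Foxo3 (shaded) and the 10 nearest tested genes on each side, in chromosomal order and not to scale, for MLL-AF9 (circles) and MLL-NRIP3 leukemia (squares). Sesn1 and Foxo3 lie between -0.56 and -0.43 in both models, and 0 of the neighbours were called. Mical1 (-0.80) and Cd24a (-1.65) lie lower in MLL-NRIP3 leukemia.

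Other genes of the pathway were taken from lists that leave out the 10 genes. Over all genes tested, 3.8% were called higher and 4.46% lower in MLL-AF9 leukemia, and 0.779% higher and 0.748% lower in MLL-NRIP3 leukemia. The difference of the responses was called positive for 2.25% and negative for 2.53% of them. Of 28 FoxO regulators tested (kinases, phosphatases, 14-3-3 proteins and modifying enzymes), 4 were called lower and 0 higher in MLL-AF9 leukemia, where 4.46% of all genes were lower, and 0 were called in MLL-NRIP3 leukemia. The number lower ran between 0 and 4 when single arrays were left out. The 4 were Sgk3, a kinase related to Akt that phosphorylates FoxO proteins (525 ± 12.5 in Rictor-deleted and 709 ± 97.9 in control cells, log2 change -0.41, adjusted p = 0.012), Ywhaz, a 14-3-3 protein that binds phosphorylated FoxO (835 ± 47.7 in Rictor-deleted and 1050.3 ± 90.8 in control cells, -0.32, 0.014), and, with calls lost on leaving out whichever 1 of the 6 arrays, the phosphatases Phlpp2 (-0.28, 0.044) and Inpp5d (-0.21, 0.047) (SD, n = 3 each). The call of Sgk3 ended without Rictor-deleted array 3 (0.052) and with averaged probe sets (0.054), and that of Ywhaz without either control array 3 (0.052) or Rictor-deleted array 3 (0.069) and with averaged probe sets (0.39). The list's median log2 change was -0.01 in both models, as against -0.01 and 0.00 over all genes.

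Of 16 genes of PI3K and insulin receptor signalling, 1 was called higher and 2 lower in MLL-AF9 leukemia. Over all genes 3.8% were higher and 4.46% lower there. In MLL-NRIP3 leukemia 0 of the 16 were called. Median log2 changes were -0.10 and -0.15. Pik3r5, a regulatory subunit of PI3K gamma, rose (46.0 ± 5.03 in Rictor-deleted and 27.1 ± 3.14 in control cells, SD, n = 3 each, log2 change 0.52, adjusted p = 0.0041), and its response differed between the models (-1.06, adjusted p = 0.0062), except without MLL-NRIP3 control arrays 1 and 2 (-0.72, 0.19). The adaptors Gab2 (-0.32, adjusted p = 0.018) and Gab1 (-0.30, 0.023) fell in MLL-AF9 leukemia, and each call ended without 4 of the 6 arrays left out singly. The response of Gab1 also differed between the models (0.75, adjusted p = 0.025), a call kept in 17 of 22 alternatives. Of 20 sestrin and other amino acid or stress inputs to mTORC1, 0 were called in either model. Their medians were -0.02 in MLL-AF9 and 0.08 in MLL-NRIP3 leukemia. The difference of the responses was called for Prkab1 among them (-0.81, adjusted p = 0.023), in 17 of 22 alternatives. Without MLL-NRIP3 control arrays 1 and 2 it shrank to -0.40.

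Of 42 other genes known to be activated by FoxO, 4 were called higher and 2 lower in MLL-AF9 leukemia. Over all genes 3.8% were higher and 4.46% lower there, so the count lower is near the background. In MLL-NRIP3 leukemia 0 were higher and 1 lower. Median log2 changes were -0.02 and 0.00. The difference of the responses was called for Pink1 (-0.88, adjusted p = 0.0097, in 20 of 22 alternatives) and S1pr1 (0.31, 0.043, in 6 of 21). That of Pink1 shrank to -0.67 without MLL-NRIP3 control arrays 1 and 2. Both MLL-AF9 means of S1pr1 were under 7.7, where a response could hardly register. Among those that rose in MLL-AF9 leukemia were Klf6, a zinc finger factor (94.7 ± 9.53 in Rictor-deleted and 42.8 ± 12.5 in control cells, log2 change 0.93, adjusted p = 0.0018), and the cell cycle inhibitors Cdkn1c (17.7 ± 2.73 in Rictor-deleted and 10.2 ± 0.88 in control cells, 0.36, 0.0044) and Cdkn2d (292 ± 23.0 in Rictor-deleted and 209 ± 20.7 in control cells, 0.46, 0.0057) (SD, n = 3 each). Pink1, a kinase that marks damaged mitochondria for removal, fell in both models. It averaged 111 ± 9.02 in Rictor-deleted and 144 ± 6.05 in control MLL-AF9 leukemia, and 93.0 ± 12.1 in Rictor-deleted and 237 ± 34.9 in control MLL-NRIP3 leukemia (SD, n = 3 each), with log2 changes of -0.34 and -1.21 (adjusted p 0.020 and 0.013). Its MLL-AF9 call was lost on leaving out control array 1, Rictor-deleted array 2 or Rictor-deleted array 3 (adjusted p 0.060, 0.089 and 0.061), and its MLL-NRIP3 call was lost without control array 2 (0.071), Rictor-deleted array 1 (0.064) or control arrays 1 and 2 together (0.21).

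Of 9 genes repressed by FoxO, 0 were called in MLL-NRIP3 leukemia and 1 was called higher in MLL-AF9 leukemia, where 3.8% of all genes were. This was Id2, an inhibitor of helix-loop-helix factors, at 119 ± 26.7 in Rictor-deleted and 70.6 ± 13.3 in control cells (SD, n = 3 each, log2 change 0.63, adjusted p = 0.018). It was no longer called when control array 3 (0.080) or Rictor-deleted array 1 (0.056) was left out. In MLL-NRIP3 leukemia Id2 averaged 20.4 ± 1.30 in Rictor-deleted and 66.3 ± 31.9 in control cells (SD, n = 3 each, log2 change -1.10, adjusted p = 0.079). Its response differed between the models (-1.73, adjusted p = 0.011), except without MLL-NRIP3 control arrays 1 and 2 (-1.15, 0.22). Another list covered the thioredoxin system, MondoA, genes of glucose use and the alpha-arrestins, to which Txnip belongs. Of its 16 genes tested, 2 were higher, both of them genes of glucose use, and 1 lower in MLL-AF9 leukemia. Over all genes 3.8% were higher and 4.46% lower there. In MLL-NRIP3 leukemia 0 of the 16 were called. Slc2a3, a glucose transporter, rose 4.40-fold in MLL-AF9 leukemia (275 ± 46.0 in Rictor-deleted and 49.8 ± 7.63 in control cells, SD, n = 3 each, adjusted p = 1.3e-06). That call held under each alternative tried, with a log2 change of 2.14 that shrank to 0.98 with averaged probe sets. The response of Slc2a3 differed between the models (-2.13, adjusted p = 0.0041), in 22 of 22 alternatives. The others were Hk1, a hexokinase (0.37, adjusted p = 0.017), and Mlxip, which encodes MondoA (-0.36, adjusted p = 0.041), and both calls ended without at least 3 of the 6 arrays left out singly. Of 11 p53 targets and G cyclins, 0 were called in MLL-AF9 leukemia and 1 higher in MLL-NRIP3 leukemia, where 0.779% of all genes were higher. This was Plk2, a p53-induced kinase (27.1 ± 7.24 in Rictor-deleted and 10.1 ± 2.28 in control cells, SD, n = 3 each, log2 change 0.72, adjusted p = 0.036). Its call ended without 4 of the 6 arrays left out singly. The difference of the responses was called for Plk2 (0.66, adjusted p = 0.0048), in 21 of 21 alternatives. Its MLL-AF9 means, 8.65 in Rictor-deleted and 7.80 in control cells, were near the filter intensity. A response could hardly register there, so this call does not show that the responses differed. With 1 spread shared by all 12 arrays, the MLL-AF9 calls named from these lists ended, except that of Slc2a3.

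Markers of other cell types, and some stress response genes, moved with the genotype beside these genes. Over all genes tested, 3.8% were called higher and 4.46% lower in MLL-AF9 leukemia, and 0.779% higher and 0.748% lower in MLL-NRIP3 leukemia. In MLL-AF9 leukemia 17 of 17 mature neutrophil genes were called higher, and their summed intensity was 35850 to 39340 on Rictor-deleted and 10970 to 16180 on control arrays. Of 12 monocyte and macrophage genes 8 were called lower there, with sums of 1846 to 2030 on Rictor-deleted and 2420 to 2573 on control arrays. In MLL-NRIP3 leukemia 4 of the 17 neutrophil genes were called lower, with sums of 4008 to 8536 on Rictor-deleted and 8780 to 26210 on control arrays. Of 18 stress response genes 3 were called higher there (Fos, Dusp1 and Jun). The sums of the 18 were 10090 to 18730 on Rictor-deleted and 7195 to 7699 on control arrays, and what raised them was not tested. Of 11 stem cell and progenitor genes 5 were called lower in MLL-AF9 leukemia (sums of 3946 to 4359 on Rictor-deleted and 4790 to 5246 on control arrays), and 1 higher in MLL-NRIP3 leukemia (8364 to 9308 on Rictor-deleted and 7606 to 7987 on control arrays). Of 8 B cell genes tested 3 were called lower in MLL-AF9 and 1 lower in MLL-NRIP3 leukemia, and of 7 mast cell, basophil and eosinophil genes tested 3 were lower in MLL-AF9 and 1 higher in MLL-NRIP3 leukemia. Kit, the receptor of stem cell factor, averaged 143 ± 12.2 in Rictor-deleted and 195 ± 36.4 in control MLL-AF9 leukemia, and 524 ± 102 in Rictor-deleted and 341 ± 43.7 in control MLL-NRIP3 leukemia (SD, n = 3 each, adjusted p 0.056 and 0.14). The part of these cell types in the values of the FoxO genes was not tested.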

How the data were processed

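RNA of sorted leukemia cells (7 µg per array, Trizol-isolated and biotin-labelled, per the labels' protocols) was hybridised to 12 Affymetrix arrays, and the sample titles gave the groups and replicate numbers. The authors deposited linear intensity values, 1 per probe set and array; the sources used here do not say how they summarised probes, corrected background or normalized. The 10 genes and the gene lists were chosen with earlier results of these data known.

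Of 45101 probe sets, 34958 had 1 gene symbol, 932 several and 9211 none. Each gene was represented by its brightest single-symbol probe set over the 12 arrays, and genes with a mean under 7.7, the 40th percentile, were left out. Tests used limma 3.58.1 in R 4.3.3 (lmFit, eBayes with a trend) on log2(intensity + 16), on the 6 arrays of each model (4 residual degrees of freedom) and, for the difference of the responses, on all 12 arrays with 1 variance weight per model (8). In simulated data 200 of 12573 genes were changed, and the shares of false calls and of recovered genes hold for that number only. With 1 spread shared by all arrays, 45.7% of calls in MLL-NRIP3 leukemia were false, against 6.45% with the model's own arrays. False calls were 2.07% in MLL-AF9 leukemia. In the difference they were 13% and 12.8%, with genes changed in MLL-AF9 and MLL-NRIP3 leukemia. The smallest p of an exact permutation of 3 against 3 arrays is 0.1, so none was run. Member probe sets were also tested each on its own. From each list up to 4 called genes with the smallest p were named. For each called member the 3 most correlated genes were named, leaving out clone names and predicted genes. Alternatives were quantile normalization, pseudocounts of 4 and 64, no filter or one at the 60th percentile, averaged probe sets, a shared spread, array weights, a replicate block and the omission of arrays. Same-numbered arrays did not deviate together (correlations of deviations between -0.135 and 0.0563), so the numbers were not taken as pairs. Further steps ran in Python 3.11.15 with pandas 2.3.3, and figures were drawn with matplotlib 3.10.9.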

Additional observations from a re-analysis of the deposited data

Results flagged for a closer look

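The Foxo1 probe set 1416982_at passed the test of the difference between the models' responses, at 0.413 on the log2 scale, MLL-NRIP3 minus MLL-AF9 (limma adjusted p = 0.022). In MLL-NRIP3 leukemia it averaged 18.5 ± 1.31 in Rictor-deleted and 11.3 ± 1.16 in control cells, and in MLL-AF9 leukemia 5.98 ± 0.13 in Rictor-deleted and 7.23 ± 1.24 in control cells (SD, n = 3 each), both under the filter intensity of 7.7. It passed the filter only through MLL-NRIP3 leukemia, so a response in MLL-AF9 leukemia could hardly register and a difference between the models is not shown. The difference was not called without MLL-NRIP3 control array 2, Rictor-deleted array 1 or Rictor-deleted array 2 (adjusted p 0.098, 0.067 and 0.077), nor without MLL-NRIP3 control arrays 1 and 2 together (0.216), nor with the replicate block (0.056), and with a filter at the 60th percentile it was not tested. The brighter Foxo1 probe set 1416983_s_at had a difference of 0.30 (adjusted p = 0.33 among probe sets).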

How the results depend on the processing

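Genes called in MLL-AF9 leukemia numbered 1039, 176 with 1 shared spread, and 582 to 963 with single arrays left out; of the 10 genes 3 were called, 1 with averaged probe sets, 0 with a shared spread, and 2 to 3 with single arrays left out. In MLL-NRIP3 leukemia 192 genes were called, 82 with averaged probe sets, 1734 with a shared spread, 3009 with array weights, 27 without control arrays 1 and 2, and 30 to 862 with single arrays left out. Of the 10 genes 0 were called there, 3 with a shared spread (Foxo3, Insr and Sesn1, adjusted p 0.031, 0.0091 and 0.0095), 3 with array weights (Ccng2, Insr and Sesn1), and 0 to 1 with single arrays left out. For the difference 601 genes were called, 2529 with array weights, 246 without MLL-NRIP3 control arrays 1 and 2, and 289 to 1113 with single arrays left out; of the 10 genes 0 were called, 2 with array weights and 0 to 1 with single arrays left out. Of the 21 probe sets 3 were called in MLL-AF9 leukemia (0 with a shared spread, 2 to 3 with single arrays left out). In MLL-NRIP3 leukemia 0 were called (4 with a shared spread and 4 with array weights, 0 with any single array left out), and 1 was called for the difference (0 with a filter at the 60th percentile, 4 with array weights, 0 with the replicate block, 0 without MLL-NRIP3 control arrays 1 and 2, and 0 to 2 with single arrays left out). The causes of these shifts were not tested. The replicate block gave 960, 163 and 520 called genes and 4, 0 and 0 of the 10 in MLL-AF9 leukemia, MLL-NRIP3 leukemia and the difference, with Sesn3 added in MLL-AF9 leukemia (adjusted p = 0.042). No called value changed sign under any alternative; for the 10 genes, 485 fold changes under alternatives kept their call or lack of one and moved by less than the spread if uncalled, 23 moved by more, 12 became calls and 10 lost the call. Dim probe sets, such as those of Sesn3 and Foxo1 in MLL-AF9 leukemia, limit what can be detected.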
